A study of Mus musculus with 2 samples.

Results

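The cells described here were early myeloid barcodes in scRNA-Seq libraries of mouse periosteum, taken as those with at least 5 UMIs each of Elane, Mpo and Prtn3 and fewer than 5 UMIs of Ltf. Elane, Mpo and Prtn3 encode neutrophil elastase, myeloperoxidase and proteinase 3, the main cargo of azurophil granules, and Ltf encodes lactoferrin, a protein of the later specific granules. Of 9169 cells kept after quality control, 165 met this gate, 140 of 6276 in library 1 and 25 of 2893 in library 2. The label given to them was neutrophil promyelocytes. They are called Elane, Mpo, Prtn3 cells below because a part of them carried genes of another lineage.

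The study profiled long bone periosteum, the fibrous sheath around femur and tibia, from WT C57BL6 mice at 4 weeks of age. Soft tissue was peeled off, digested with collagenase and sorted by FACS on CD45, CD31, Ter-119 and DAPI, and the CD45-CD31-Ter119- fraction went to 10x Genomics scRNA-Seq. There was 1 condition with 2 libraries, replicates 1 and 2, and neither a treatment nor a transgene was given for any mouse. The sources used here do not say how many mice went into a library, so spread between the libraries may be technical. The barcodes of library 1 held 100808649 UMIs in all and those of library 2 held 33306452 UMIs (unique molecular identifiers, each counting 1 captured transcript).

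Both libraries went against their description in part. A sort that removes CD45+ cells should leave few blood cells, yet 620 and 69 barcodes of libraries 1 and 2 were later neutrophils (Ltf at 5 or more UMIs and Elane under 5). A further 2351 and 1168 barcodes, with the Elane, Mpo, Prtn3 cells left out, made up a B cell gate of 5 or more UMIs of Cd79a. The study removed hematopoietic lineage cells before it clustered its mouse data. Library 2, labelled WT, held 6836 EGFP UMIs in its other cells where library 1 held 0, although the Elane, Mpo, Prtn3 cells held 0 EGFP UMIs in both. The libraries shared 8 barcodes, none of them a gated cell.

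As background, neutrophils arise in bone marrow by a fixed order of granule synthesis. Promyelocytes make serine proteases and myeloperoxidase and store them in azurophil granules, and these genes are shut off before the myelocyte and metamyelocyte stages, which make specific and then gelatinase granules. C/EBPα and PU.1 (Spi1) act early in this series, C/EBPε drives the passage to specific granules, and IRF8 directs shared precursors to the monocyte side.

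Elane and Prtn3, which the gate uses, and Ctsg (cathepsin G), which it does not, are serine protease genes of azurophil granules. In GRCm38 with GENCODE positions, Elane lies at chr10:79886247-79888215 and Prtn3 at chr10:79874476-79883174, both on the plus strand of one gene cluster that also holds Prss57 (neutrophil serine protease 4) on the minus strand at chr10:79781474-79790961. Ctsg lies apart at chr14:56099881-56102574 on the minus strand. The other gate genes, Mpo and Ltf, lie at chr11:87793581-87804413 and chr9:111019271-111042767, both on the plus strand.
The RefSeq promoter windows (GRCm38.p6) are shown for these 3 azurophil proteases, of which Elane and Prtn3 are gate genes. The windows run from 250 bases before to 50 after the RefSeq gene start, read 5′ to 3′ on the gene's strand. The RefSeq start used lies inside the GENCODE gene for Elane (65 bases downstream) and Prtn3 (5191 bases downstream) and on its first base for Ctsg, and positions are counted from the RefSeq start. Capitals mark GAGGAA, the core that PU.1 and other ETS factors bind. The windows are chr10:79886062-79886361 for Elane, chr10:79879417-79879716 for Prtn3 and chr14:56102525-56102824 (minus strand) for Ctsg.
Elane: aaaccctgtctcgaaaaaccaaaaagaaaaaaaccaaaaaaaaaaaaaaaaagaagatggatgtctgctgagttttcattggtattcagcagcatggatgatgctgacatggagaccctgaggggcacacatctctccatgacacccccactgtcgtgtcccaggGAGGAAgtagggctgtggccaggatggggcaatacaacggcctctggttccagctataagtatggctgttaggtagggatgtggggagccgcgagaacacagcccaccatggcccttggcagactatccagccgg
Prtn3: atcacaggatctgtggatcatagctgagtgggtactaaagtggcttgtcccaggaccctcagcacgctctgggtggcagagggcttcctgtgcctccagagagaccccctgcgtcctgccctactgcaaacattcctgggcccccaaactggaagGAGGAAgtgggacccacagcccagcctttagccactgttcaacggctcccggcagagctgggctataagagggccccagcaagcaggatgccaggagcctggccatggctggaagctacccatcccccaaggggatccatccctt
Ctsg: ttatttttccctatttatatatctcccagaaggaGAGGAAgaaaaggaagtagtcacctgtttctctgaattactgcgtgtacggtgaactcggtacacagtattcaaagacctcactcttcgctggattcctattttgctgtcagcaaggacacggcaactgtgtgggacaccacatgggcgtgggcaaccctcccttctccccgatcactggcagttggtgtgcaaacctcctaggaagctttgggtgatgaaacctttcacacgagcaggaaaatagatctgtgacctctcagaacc
GAGGAA stood once in each window, starting at -85, -95 and -216 from the RefSeq start of Elane, Prtn3 and Ctsg, all on the gene's strand. On either strand it was present in 28.3% of 32851 promoters of the same length. The MYB core AACNG (either strand) matched 2, 3 and 3 times and is in 80.3% of promoters. The RUNX core TGTGGT (either strand) matched once, in Ctsg, against 16.8% of promoters, and TTNNGNAA, a loose C/EBP core, had 0 matches in these windows against 40.7% of promoters.

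The gate fixed the levels of its own genes, which are given as a description only. In the Elane, Mpo, Prtn3 cells, the summed level in CPM (UMIs of a gene scaled to the same total UMIs for each class and library) was 9438 and 9554 for Elane, 5880 and 5815 for Mpo and 10356 and 9539 for Prtn3 in libraries 1 and 2. A single cell held a median of 409.5 and 192 Elane UMIs, with a range of 5 to 1571 in library 1 and 5 to 1229 in library 2. Ltf stood at 12.6 and 0.976 CPM, against 7780 and 4175 CPM in later neutrophils. The 4 gate genes together made up 2.57% and 2.49% of all UMIs of these cells.

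Few cells lay next to a threshold. At the inner side, with 5 to 9 UMIs, stood 5 and 2 members for Elane, 5 and 2 for Mpo and 1 and 0 for Prtn3. With 1 to 4 UMIs but the other genes met, 9 and 3 cells missed the gate by Elane, 11 and 0 by Mpo and 0 and 0 by Prtn3. Ltf divided the cells less sharply. In library 1, 52 members held 1 to 4 Ltf UMIs and 88 held 0, while 8 cells failed by 5 to 9 UMIs and 30 in all failed by Ltf. In library 2, 24 of 25 members held 0, and 1 cell failed by Ltf. Another 2 barcodes of library 2 met the gate but were removed by the quality filters.

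**Figure D1:**
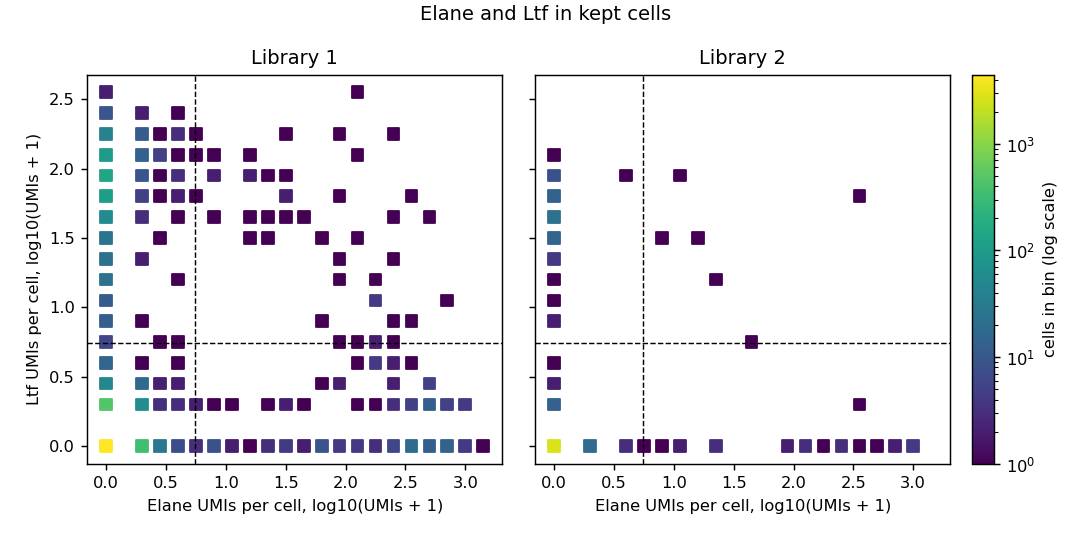
Density of kept cells by Elane (horizontal) and Ltf (vertical) UMIs per cell, both as log10(UMIs + 1), for each library, with the colour giving the number of cells in a bin on a log scale. Dashed lines mark the gate at 5 UMIs. The later neutrophils (620 and 69 cells) fill the upper left, and the cells with both genes at 5 or more UMIs (48 and 6) form the sparse upper right.

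The Elane, Mpo, Prtn3 cells made up 2.23% of kept cells in library 1 (95% Clopper-Pearson interval 1.88 to 2.63) and 0.864% in library 2 (0.560 to 1.27). The intervals cover counting error within each library only, so the difference between the libraries was not tested. Their median depth was above that of the other classes, at 43739 and 43190 UMIs per cell, with 5291.5 and 5099 genes detected, against 9607.5 and 10173 UMIs and 1921 and 1725 genes in later neutrophils and 7639.5 and 6066 UMIs in all other cells. Whether the gate of 5 UMIs in each of 3 genes, or barcodes holding more than 1 cell, had a part in this depth was not tested. No doublet caller was run. In library 1, 10 members held 5 or more UMIs of the B cell gene Cd79a, 12 of the red cell gene Slc4a1 (band 3) and 2 of the bone collagen gene Col1a1. In library 2 only Col1a1 reached that level, in 1 member. The deepest of all other cells held 132210 and 101090 UMIs, and the gated cells ranged from 3037 to 156472 UMIs in library 1 and from 982 to 109574 in library 2. The mitochondrial share had a median of 2.36% and 1.16%, between that of later neutrophils (0.675% and 0.282%) and all other cells (3.62% and 1.67%).

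Gate transcripts were also found in barcodes of a lineage that does not make them. Whether these UMIs came from free RNA or from barcodes holding more than 1 cell was not tested. An Elane UMI was found in 6.17% of the Cd79a-gated B cells of library 1 (median depth 4452 UMIs) and 0.428% of those of library 2 (4375 UMIs). In later neutrophils an Elane UMI was found in 11.3% of 620 cells and 1.45% of 69 cells. Elane CPM was 14.1 and 4.25 in later neutrophils and 30.1 and 0.614 in the B cells. Later neutrophils were held under 5 Elane UMIs by their definition, so these classes are not compared.

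The 2 stage markers that the gate did not use were checked against the label. Ctsg, the azurophil protease cathepsin G, stood at 4837 and 5539 CPM and had a UMI in 100% of cells of both libraries. The same gene was at 4.80 and 2.12 CPM in later neutrophils and 32.4 and 15.5 CPM in all other cells, so that its level was 1008 (95% counting interval 737 to 1418) and 2610 (722 to 21553) times that of later neutrophils. Ms4a3, a membrane protein of granulocyte-monocyte precursors, stood at 1154 and 1145 CPM with a UMI in 133 of 140 and 23 of 25 cells. It was at 101 and 128 CPM in later neutrophils and 18.5 and 5.21 CPM in all other cells. Both markers were chosen for this stage, so the values describe the cells and are not a test, and the other markers of the label are the gate genes.

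Within the gate, the cells were not uniform. Irf8, the factor of the monocyte branch, was at 0 UMIs in 85 and 12 cells and at 5 or more in 41 of 140 and 11 of 25 cells. Of the latter, F13a1 (coagulation factor XIII A chain, a monocyte gene) was at 5 or more UMIs in 36 and 9, Ms4a6c in 37 and 11 and Ly86 (MD-1, partner of RP105) in 28 and 8. Cebpe, the factor of specific granule synthesis, reached 5 UMIs in 91 and 9 cells of the whole gate but in 6 and 0 of those with Irf8. Each of F13a1, Ms4a6c and Ly86 thus reached 5 UMIs in most cells with Irf8, and Cebpe in few, which goes against their neutrophil label. Of other monocyte genes, Ly6c2 reached 5 UMIs in 134 and 19 cells of the whole gate. The 41 cells of library 1 held a median of 2 Csf1r, 3 Ccr2, 2 Mpeg1 and 0 Cx3cr1 UMIs. Among all 25 gated cells of library 2, Csf1r and Ccr2 reached 5 UMIs in 1 cell each, and Mpeg1, Cx3cr1 and Cd74 in 0. The cells with Irf8 were not all alike, since 3 of the 41 in library 1 were at 0 F13a1 UMIs. Another feature was that 7 held 5 or more UMIs of the B cell gene Cd79a, a lineage that also carries Irf8. None of the 11 in library 2 did either.

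**Figure D2:**
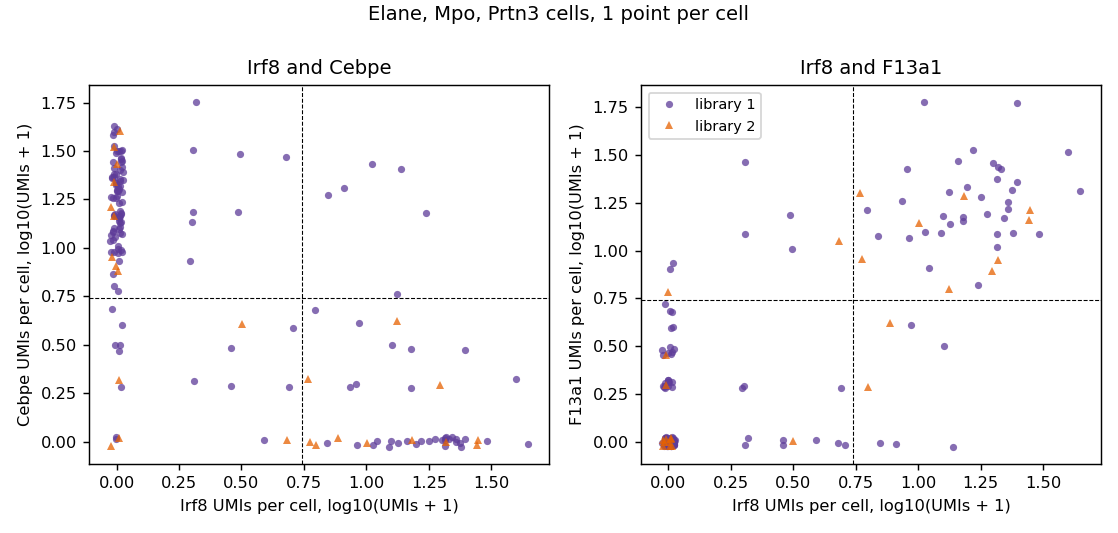
UMIs per cell of Cebpe (left) and F13a1 (right) against Irf8 in the 140 and 25 Elane, Mpo, Prtn3 cells of libraries 1 and 2, as log10(UMIs + 1) with a small jitter. Dashed lines mark 5 UMIs. Of the 41 and 11 cells at 5 or more Irf8 UMIs, 36 and 9 also reach 5 for F13a1, and 6 and 0 reach it for Cebpe.

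Per-cell levels described the same axis. Over the 140 and 25 cells, Spearman's rho of CPM was 0.90 and 0.91 for Irf8 and Ly86, 0.71 and 0.80 for Irf8 and F13a1, -0.67 and -0.70 for Irf8 and Cebpe, and -0.69 and -0.68 for Irf8 and Ms4a3. All points of a library share its suspension and free RNA, and these genes of a cell share its depth.

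Camp (cathelicidin, a specific granule peptide) split the remaining cells. The classes that follow were drawn after the values had been seen and are ranges of UMI counts, not cell types. With Irf8 under 5 UMIs, Camp was at 5 or more in 61 and 3 cells and under 5 in 38 and 11. These limits take no account of depth or free RNA. In library 2 the cells low in both included cells of 982, 1168 and 1885 UMIs, and another with 4 Irf8 and 10 F13a1 UMIs. In library 1 Camp stood at 464 CPM even in the Cd79a-gated B cells. Ctsg stood at 8230 and 9392 CPM in the cells low in both genes, 4134 and 1686 CPM in the Camp cells and 3022 and 3360 CPM in the Irf8 cells. Ms4a3 stood at 1641 and 1919 CPM in the cells low in both, 1314 and 1074 CPM in the Camp cells and 490 and 488 CPM in the Irf8 cells.

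The Camp cells also held other genes of the next stages. Ngp (neutrophilic granule protein) was at 2983 and 5615 CPM in them, against 44.1 and 2.44 CPM in the cells low in both genes, and Fcnb (ficolin B) was at 1022 and 585 CPM against 229 and 82.8 CPM. Cebpe was 414 and 420 CPM in the Camp cells, 244 and 280 CPM in the cells low in both and 65.3 and 10.7 CPM in the Irf8 cells. Ly86, at 147 and 211 CPM in the Irf8 cells, was at 2.00 and 0 CPM in the Camp cells. Cd34, a surface protein of early progenitors, was at 60.1 and 64.0 CPM in the Irf8 cells and 3.67 and 0 CPM in the Camp cells. It was not confined to the Irf8 cells. In the cells low in both genes it was at 27.8 CPM in library 1, and such a cell of library 2 held 11 Cd34 UMIs. The Camp class of library 2 rests on 3 cells. Cells with both Elane and Ltf at 5 or more UMIs, which the gate leaves out, carried 51704 and 60440 CPM of Camp and 513 and 174 CPM of Ctsg.

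Against later neutrophils, the gated cells were tested gene by gene on UMIs summed per library and class, with edgeR's quasi-likelihood test and Benjamini-Hochberg adjustment over 12163 genes, the gate genes left out. There were 2 sums per class, 3 residual degrees of freedom and 1 estimate of spread shared by the gated cells, later neutrophils and all other cells. At an adjusted p under 0.05, 761 genes were higher in the Elane, Mpo, Prtn3 cells (6.26% of those tested) and 1064 were lower (8.75%). With the library as a block, since sums of 1 library come from 1 cell suspension, 1332 were higher and 1719 lower. Leaving out all cells with 5 or more UMIs of a gene of another lineage gave 1489 higher and 1829 lower. Since the cells were chosen by 4 genes, any gene that goes with those genes from cell to cell had to differ, and the tests say only whether a difference recurred in both libraries.

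The scale of this comparison was not free of choice. TMM scaling (trimmed mean of M values) set fold changes 0.63 and 0.70 lower, in log2, than the ratio of the CPM values in libraries 1 and 2. With library size alone, the median log2 fold change of all genes was 0.57 in place of -0.06, and 1929 genes were higher and 574 lower. CPM values below are unscaled levels, and log2 fold changes are on the TMM scale. Levels of different genes are not compared with each other.

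Azurophil granule genes outside the gate divided by protein. Of 9 tested, 4 were higher (Ctsg, Prss57, Ctsc and Srgn), 1 was lower and 4 did not pass, with a median log2 fold change of 1.46 against -0.06 over all genes. Prss57, the serine protease of the Elane cluster, was at 326 and 210 CPM in the gated cells and 16.7 and 19.1 CPM in later neutrophils, a log2 fold change of 3.26 ± 0.49 (SE; adjusted p = 0.0122, n = 2 libraries by the edgeR fit). Ctsc, the dipeptidase that activates these proteases, was at 72.9 and 190 CPM against 8.12 and 2.12 (3.82 ± 0.66, edgeR adjusted p = 0.0155). Both genes were higher in each library. Of the Ctsc UMIs of library 1, 381 of 480 were in the 41 Irf8 cells, at 197 CPM, against 19.3 CPM in the Camp cells and 24.8 CPM in the cells low in both. In library 2, 129 of 195 were in the 11 Irf8 cells, and 1 other cell held 57. Without the Irf8 cells Ctsc did not pass (2.84, adjusted p = 0.0673), and 3 azurophil genes were higher. Srgn, the proteoglycan that packs protease cargo, was at 2682 and 2692 CPM against 304 and 374. Lyz2 (lysozyme), which neutrophils store in all granule classes, went the other way, with 1175 and 773 CPM against 13223 and 19269 (log2 fold change -4.73 ± 0.57, edgeR adjusted p = 0.00844). Gusb (β-glucuronidase) was at 90.2 and 62.5 CPM against 23.5 and 10.6 and did not pass (adjusted p = 0.0599; 0.0218 with the block). Bpi was at 0 UMIs in the gated cells and in later neutrophils of both libraries.

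A wider list of genes tied to the promyelocyte stage also holds Ctsg, Prss57 and Ms4a3 given above. Of its 15 genes, 9 were higher and 1 was lower, with a median log2 fold change of 2.66. Cst7 (cystatin F, an inhibitor of cathepsin C) was at 154 and 92.7 CPM in the gated cells and 1.23 and 0 CPM in later neutrophils, 125 times higher in library 1 (95% counting interval 67.8 to 262) and at least 29.1-fold higher in library 2 by a floor of 3 counts per library. Its log2 fold change was 6.33 ± 0.83 (edgeR adjusted p = 0.00814). Nkg7, a granule membrane protein, was at 747 and 712 CPM against 26.2 and 17.0 (4.40 ± 0.37, edgeR adjusted p = 0.00532). Gstm1 (glutathione transferase) was at 394 and 524 CPM against 7.75 and 7.43 (5.26 ± 0.56). Plac8 was at 2896 and 3314 CPM against 217 and 141 (3.46 ± 0.37). These 4 genes stood far above later neutrophils in both libraries.

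Several listed genes did not pass the test. In simulated counts, where far fewer genes differed than were called here, the test recovered 0.588% of genes changed 2-fold. Clec12a, an inhibitory lectin receptor, was at 490 and 490 CPM against 206 and 214 in later neutrophils, a log2 fold change of 0.56 ± 0.31 (edgeR adjusted p = 0.259). Fcnb was at 569 and 140 CPM against 435 and 428, a log2 fold change of -0.95 ± 0.82 (edgeR adjusted p = 0.461). Its CPM in the gated cells was above that of later neutrophils in library 1 and below it in library 2. Serpinb1a, the inhibitor of neutrophil elastase, was at 667 and 411 CPM against 571 and 780 (edgeR adjusted p = 0.0969). Mgst1 (microsomal glutathione transferase) was the listed gene that was lower, at 151 and 182 CPM against 559 and 567 (-2.42 ± 0.31, edgeR adjusted p = 0.00908).

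**Figure D3:**
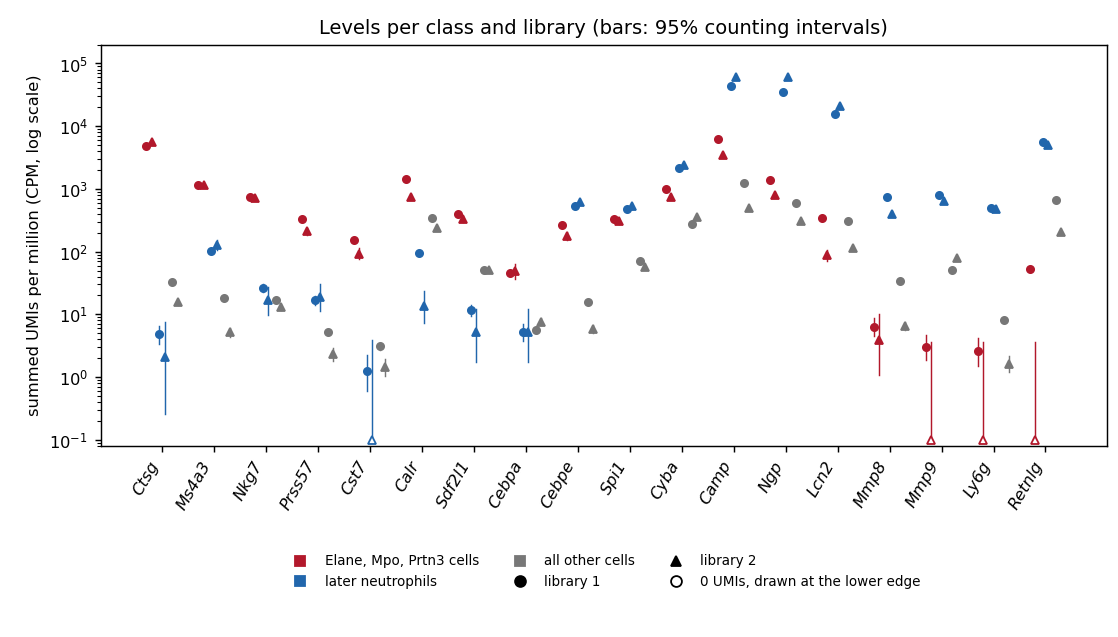
Summed CPM (log scale) of 18 genes in the Elane, Mpo, Prtn3 cells, later neutrophils and all other cells, by library (circle, library 1; triangle, library 2), with bars for the 95% counting interval and open symbols for 0 UMIs. Ctsg falls from 4837 and 5539 CPM to 4.80 and 2.12 CPM between gated cells and later neutrophils, and Mmp9 is reversed, at 3.04 and 0 CPM against 810 and 643.

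The genes with the largest rise, among those at 50 CPM or more in both libraries of the gated cells, were Ctsg, Dmkn, Ass1, Cst7, F13a1, BC035044, Gstm1, Ms4a6c, Lgals1 and Mgl2. Dmkn (dermokine) was at 83.4 and 103 CPM against 0 and 1.06 CPM, at least 226-fold higher in library 1 (log2 fold change 8.86 ± 1.501, edgeR adjusted p = 0.0157). Ass1, argininosuccinate synthase of arginine synthesis, was at 108 and 320 CPM against 1.48 and 0 CPM, at least 101-fold higher in library 2. Lgals1 (galectin-1) was at 601 and 1101 CPM against 28.5 and 3.18. F13a1 (126 and 125 CPM against 1.60 and 0) and Ms4a6c (135 and 242 CPM against 3.20 and 4.25) were 2 of the genes found in the Irf8 cells. In library 1 those cells held 705 of 829 F13a1 UMIs and 785 of 888 Ms4a6c UMIs. There F13a1 was at 24.7 CPM in the Camp cells and 30.2 CPM in the cells low in both. Ms4a6c was at 15.3 and 34.5 CPM in these classes. Without the 41 and 11 cells at 5 or more Irf8 UMIs, 590 genes were higher and 989 lower.

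Specific granule genes were lower with 1 exception. Of 10 tested, 9 were lower and 0 higher (edgeR; at an unadjusted p under 0.05, 10 were lower and 0 higher, and DESeq2 called 10 lower and 0 higher), with a median log2 fold change of -5.80. Camp was at 6177 and 3480 CPM in the gated cells and 44084 and 60236 CPM in later neutrophils, a log2 fold change of -4.11 ± 0.67 (edgeR adjusted p = 0.0138). Ngp was at 1408 and 797 CPM against 34803 and 61726 (-6.13 ± 0.71), and Lcn2 (lipocalin 2, which binds iron-loaded siderophores) was at 348 and 86.9 CPM against 15677 and 20880 (-7.06 ± 0.92). Mmp8 (neutrophil collagenase) was nearly without transcripts, at 6.38 and 3.90 CPM against 736 and 403. Hp (haptoglobin) was the member that did not pass, at 738 and 437 CPM against 1155 and 1201 (-1.67 ± 0.59, edgeR adjusted p = 0.0944; 0.0432 with the block). Ltf, the gate gene, is a member of this granule class, and genes that follow it had to be lower.

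Gelatinase granule and secretory vesicle genes behaved alike. Of 11 tested, 8 were lower and 0 higher (0 also at an unadjusted p under 0.05 and by DESeq2), with a median log2 fold change of -4.71. Mmp9 (gelatinase B) was at 3.04 and 0 CPM against 810 and 643, 267 times lower in library 1 (95% counting interval 173 to 437) and at least 220-fold lower in library 2. The formyl peptide receptor gene Fpr2 was at 0.760 and 0 CPM against 147 and 72.2. Fcgr3 (a receptor for IgG) did not pass, at 145 and 167 CPM against 154 and 227 (edgeR adjusted p = 0.150), nor did Cd14, the lipopolysaccharide co-receptor, at 15.8 and 123 CPM against 40.8 and 77.5 (edgeR adjusted p = 0.774).

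Genes of mature neutrophils were lower in 11 of 17 cases and higher in 0 (0 also at an unadjusted p under 0.05 and by DESeq2), with a median log2 fold change of -4.06. Ly6g, the surface antigen by which mouse neutrophils are sorted, was at 2.58 and 0 CPM against 501 and 485 and at least 166-fold lower in library 2. Retnlg (resistin-like gamma) was at 52.1 and 0 CPM against 5550 and 4929. S100a8 and S100a9, the subunits of calprotectin, were lower in the test, with S100a8 at 17533 and 6116 CPM against 116090 and 164970 (-4.25 ± 0.79, edgeR adjusted p = 0.0183). In library 2 the median gated cell held 1 UMI of S100a8 and 0 of S100a9, while 1 cell held 2563 of the 6267 S100a8 UMIs, and without it S100a8 was at 3720 CPM. Ceacam10, with the most negative fitted value, was at 0 UMIs in the gated cells of both libraries and 95.1 and 108 CPM in later neutrophils, at least 209-fold and 37.0-fold lower. AA467197, Mmp9, Slfn1, Ly6g, Krt83, Retnlg, Fpr2, Plbd1 and Ifitm6 followed it, with log2 fold changes from -9.31 to -7.82.

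Secretory protein synthesis was read from a list of the endoplasmic reticulum (ER). Of 36 genes of ER translocation and folding, 17 were higher and 0 lower (0 lower also at an unadjusted p under 0.05 and by DESeq2), with a median log2 fold change of 1.58, and 24 were higher with the library as a block. Sdf2l1, a partner of the BiP chaperone, was at 403 and 335 CPM against 11.6 and 5.31 (4.70 ± 0.42, edgeR adjusted p = 0.00532). Pdia6 (a disulfide isomerase) was at 680 and 603 CPM against 39.7 and 19.1 (3.76 ± 0.48, edgeR adjusted p = 0.00902). Calr (calreticulin, which helps fold myeloperoxidase) was at 1453 and 749 CPM against 94.2 and 13.8 (3.67 ± 0.79, edgeR adjusted p = 0.0253). Hspa5 (BiP) was at 1090 and 783 CPM against 216 and 110. The signal recognition particle genes Srp9 and Srp14 did not pass, with log2 fold changes of 0.42 and 0.05.

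Ribosome biogenesis followed the same direction. Of 30 genes, 14 were higher and 0 lower (0 lower also at an unadjusted p under 0.05 and by DESeq2), with a median log2 fold change of 1.90, and the block and DESeq2 each called 24 higher. Npm1 (nucleophosmin) was at 2358 and 2905 CPM against 441 and 142 (2.53 ± 0.53, edgeR adjusted p = 0.0237). Fbl (fibrillarin, the rRNA methyltransferase) was at 204 and 199 CPM against 30.3 and 5.31 (2.76 ± 0.68, edgeR adjusted p = 0.0364; 0.0519 without the Irf8 cells). Nop56 was at 164 and 158 CPM against 47.1 and 18.0 and did not pass (adjusted p = 0.0659; 0.0199 with the block). Later neutrophils of library 2 were lower than those of library 1 for each of these genes. The fold change was above 0 for 29 of the 30 genes, and for 35 of the 36 ER genes.

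**Figure D4:**
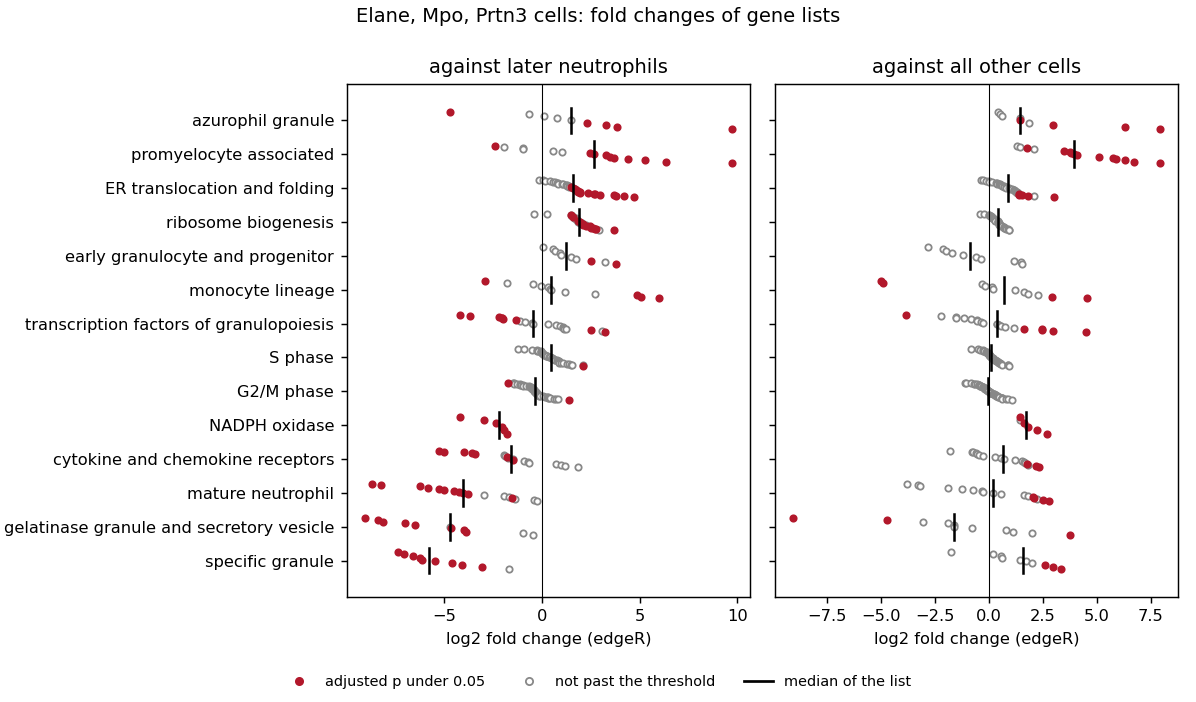
Log2 fold change (edgeR) of each tested gene of 14 lists, Elane, Mpo, Prtn3 cells against later neutrophils (left) and against all other cells (right), with filled points for an adjusted p under 0.05 and a bar for the list median. Specific granule genes lie left of 0 in the left panel (median -5.80) and mostly right of 0 in the right panel (median 1.58).

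Transcription factors of granulopoiesis moved both ways. Of 21 tested, 2 were higher (Cebpa and Irf8) and 7 lower, against 6.26% and 8.75% of all genes tested. The list was not tested against these shares. Its median was -0.45, which turned to 0.21 with library size alone, where 5 were higher and 2 lower. With the library as a block, 4 were higher and 7 lower. Cebpa was at 45.7 and 48.8 CPM against 5.17 and 5.31 in later neutrophils (2.53 ± 0.45, edgeR adjusted p = 0.0161). Cebpe was at 269 and 177 CPM against 536 and 620 (-2.04 ± 0.50, edgeR adjusted p = 0.0362), and without the Irf8 cells at -1.47 (adjusted p = 0.0816). Spi1 (PU.1) was at 329 and 308 CPM against 471 and 526 (-1.31 ± 0.30, edgeR adjusted p = 0.0304). Gfi1, a repressor that favours the granulocyte fate, was at 55.2 and 38.1 CPM against 18.8 and 8.49 and did not pass (adjusted p = 0.155). Cebpa and Cebpe thus stood in opposite order between the stages in both libraries.

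Irf8 was at 107 and 150 CPM against 14.0 and 1.06 CPM in later neutrophils, a log2 fold change of 3.22 ± 0.73 (edgeR adjusted p = 0.0293). This value rested on the 41 and 11 cells at 5 or more Irf8 UMIs, without which it was -0.84, as their removal dictates. The other factors that were lower were Cebpd, Klf5, Ikzf1, Zfp36 and Bcl6, of which Ikzf1 did not pass without the Irf8 cells (adjusted p = 0.0512). Klf5 was at 14.0 and 1.95 CPM against 96.9 and 47.8 (-3.66 ± 0.72). Bcl6, a repressor of inflammatory genes, was at 6.53 and 0 CPM against 50.4 and 48.8 (-4.21 ± 0.84). Myc was at 14.9 and 28.3 CPM against 2.09 and 0 and did not pass (adjusted p = 0.0616; 0.0497 with the block).

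The NADPH oxidase, the enzyme complex of the respiratory burst, was lower as a whole. All 6 tested subunit genes were lower and 0 were higher (0 also at an unadjusted p under 0.05 and by DESeq2), with a median log2 fold change of -2.20. Cybb (gp91phox, the catalytic subunit) was at 165 and 59.5 CPM against 1592 and 1051 (-4.20 ± 0.67, edgeR adjusted p = 0.0134), and Cyba (p22phox, its membrane partner) was at 1002 and 754 CPM against 2183 and 2403 (-2.05 ± 0.34, edgeR adjusted p = 0.0139). The cytosolic subunits Ncf1 and Ncf4 and the GTPase Rac2 had log2 fold changes of -2.94, -1.94 and -1.76.

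Among receptors and protease inhibitors, more genes were lower than higher against later neutrophils. Of 18 cytokine and chemokine receptors, 7 were lower and 0 higher with edgeR, against 8.75% and 6.26% of all genes tested. At an unadjusted p under 0.05 (edgeR), 2 receptors were higher, and DESeq2 called 2 higher. With library size alone 3 were higher and 4 lower, with the block 2 were higher and 10 lower, and without the Irf8 cells 1 was higher and 7 lower. Cxcr2, the receptor for neutrophil-attracting chemokines, was at 3.95 and 2.93 CPM against 121 and 55.2 (-5.27 ± 0.79), and Cxcr4, which holds neutrophils in marrow, was at 67.8 and 101 CPM against 167 and 134 (-1.49 ± 0.36, edgeR adjusted p = 0.0345). Csf3r, the G-CSF receptor, was at 42.4 and 16.6 CPM against 96.3 and 50.9 and did not pass (adjusted p = 0.109; 0.0149 with the block). Il3ra, the IL-3 receptor α chain, was at 28.6 and 55.6 CPM against 7.997 and 6.37 (adjusted p = 0.0568; 0.0343 with the block). Of 11 protease inhibitors, Cst7 was higher and 5 were lower, among them Stfa1 (stefin A1) at 3.34 and 0 CPM against 110 and 323.

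Of 10 early progenitor genes, 2 were higher than in later neutrophils and 0 lower (0 lower also at an unadjusted p under 0.05 and by DESeq2). Over all genes tested, 6.26% were higher and 8.75% lower. Cd48, a SLAM family receptor, was at 69.4 and 104 CPM against 5.41 and 1.06 (3.80 ± 0.58, edgeR adjusted p = 0.0122), and the cyclin-dependent kinase gene Cdk6 was at 170 and 125 CPM against 25.8 and 5.31 (2.49 ± 0.65, edgeR adjusted p = 0.0415). Kit, the stem cell factor receptor, was at 29.8 and 22.4 CPM against 10.9 and 5.31 (edgeR adjusted p = 0.270). Cd34 was at 26.3 and 45.9 CPM against 3.44 and 0 (edgeR adjusted p = 0.114). Flt3 was at 0.152 and 1.95 CPM, which is 1 and 2 UMIs.

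Lists for other myeloid lineages bear on the label. For scale, 6.26% of all genes tested were higher than in later neutrophils and 8.75% lower. Of 12 monocyte lineage genes, 3 were higher (F13a1, Ly86 and Ms4a6c) and 1 was lower (Lgals3, galectin-3, at 177 and 265 CPM against 865 and 1201), with a median log2 fold change of 0.44. Without the cells at 5 or more Irf8 UMIs, 2 were higher and 2 lower and the median was -0.46, and Ly86 did not pass (1.79, adjusted p = 0.257). In library 1 these cells held 283 of the 303 Ly86 UMIs. The list summed to 1743 and 1929 CPM in the gated cells and 1584 and 1666 CPM in later neutrophils, and its most abundant gene in the gated cells was Ly6c2, at 1124 and 1082 CPM. Of 6 basophil and mast cell genes, 2 were higher. Mcpt8 (a basophil protease) was at 13.4 and 15.6 CPM against 0.615 and 0 (4.16 ± 0.76, edgeR adjusted p = 0.0145), and Cpa3 (mast cell carboxypeptidase) was at 3.49 and 6.83 CPM against 0 and 0, at least 9.47-fold and 2.15-fold higher. Hdc (histidine decarboxylase) was lower, at 65.8 and 46.8 CPM against 255 and 221. The eosinophil genes Epx, Ear1 and Il5ra and the mast cell gene Fcer1a were at 0 in both libraries, and Prg2 was at 0.456 and 0 CPM. The part of other cell types in these values was not tested.

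Of 42 S phase genes, 1 (Ung, uracil-DNA glycosylase) was higher than in later neutrophils and 0 lower, and of 52 G2/M genes 1 (Cks1b) was higher and 1 (Hjurp, a histone CENP-A chaperone) lower. Without the Irf8 cells neither Ung (adjusted p = 0.106) nor Hjurp (0.0536) passed. At an unadjusted p under 0.05, 7 S phase genes were higher and 1 lower, and DESeq2 called 6 higher and 0 lower. For G2/M these counts were 1 higher and 6 lower unadjusted and 1 higher and 4 lower by DESeq2. Over all 12163 genes, 3990 had an unadjusted p under 0.05 in either direction (edgeR). DESeq2 called 1249 higher and 1408 lower of 11301 genes. Neither cell cycle list was tested against these shares. With the library as a block, 7 S phase genes were higher and 6 G2/M genes lower. The S phase list summed to 3754 and 3447 CPM in the gated cells, 1967 and 1658 CPM in later neutrophils and 4841 and 2357 CPM in all other cells. The medians were 0.47 for S phase and -0.37 for G2/M, and with library size alone the latter turned to 0.28. Mki67 (Ki-67) was at 215 and 67.3 CPM, against 326 and 159 in later neutrophils (edgeR adjusted p = 0.246; 0.0221 with the block) and 545 and 121 in all other cells (edgeR adjusted p = 0.455). Pcna, the DNA clamp, was at 266 and 258 CPM.

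Against all other cells, a mixture of stromal, cartilage, B lineage, erythroid and further myeloid barcodes, 345 genes were higher in the Elane, Mpo, Prtn3 cells (2.84% of 12163) and 796 lower (6.54%), with edgeR. With the library as a block, 567 were higher and 1287 lower. The comparison shares the gated cells with the one above, so the values stand side by side and not as separate support. The other cells differed in makeup between the libraries, with erythroid genes summing to 80769 and 19625 CPM and stromal genes to 8284 and 34087 CPM.

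The 10 genes with the largest rise over all other cells were Ctsg, Ms4a3, Mgl2, Prss57, Cst7, Nkg7, Dmkn, Cldn15, Clec12a and Atp8b4. Mgl2, a galactose-type lectin, was at 60.9 and 71.2 CPM against 1.09 and 0.347 (log2 fold change 6.60 ± 0.65, edgeR adjusted p = 0.0119). Cldn15 (a claudin) was at 78.5 and 68.3 CPM against 2.26 and 0.973, and at 46.3 and 57.3 CPM in later neutrophils. Clec12a was at 490 and 490 CPM against 19.0 and 12.8 (5.09 ± 0.37, edgeR adjusted p = 0.00652). Cldn15, Clec12a and Atp8b4 thus stood above all other cells, while in the test against later neutrophils they did not pass.

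By list, 12 of 15 promyelocyte-associated genes were higher than in all other cells and 0 lower (0 lower also at an unadjusted p under 0.05 and by DESeq2), with a median log2 fold change of 3.94 against -0.18 over all genes. Cebpe was at 269 and 177 CPM against 15.9 and 5.80 (4.50 ± 0.56, edgeR adjusted p = 0.0128). Spi1 was at 329 and 308 CPM against 71.9 and 56.1 (2.46 ± 0.31, edgeR adjusted p = 0.0128). Irf8 was at 107 and 150 CPM against 97.0 and 74.5 (0.73 ± 0.65, edgeR adjusted p = 0.577). B lineage cells carry this gene too, and 74.0% and 62.3% of the Cd79a-gated cells had an Irf8 UMI. Of the NADPH oxidase genes, 5 of 6 were higher than in all other cells, although all 6 were lower than in later neutrophils. Specific granule genes were higher in 3 of 10 cases, Camp with 1257 and 498 CPM in all other cells among them (2.60 ± 0.63, edgeR adjusted p = 0.0444). In library 2 this rested on 2 of 25 cells, without which Camp was at 14.7 CPM in the gated cells, below all other cells.

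Fewer ER and ribosome biogenesis genes passed against this mixture than against later neutrophils, and the difference between the comparisons was not tested. Of 36 ER genes, 5 were higher (Sdf2l1 at 50.1 and 50.9 CPM in all other cells; 3.02 ± 0.38, edgeR adjusted p = 0.0128), 9 were higher with the block and 14 by DESeq2. Of 30 ribosome biogenesis genes, 0 were higher or lower with edgeR, 1 was higher and 0 lower at an unadjusted p under 0.05, and DESeq2 called 0. Npm1 was at 2358 and 2905 CPM against 2528 and 1773. Siglecf, a lectin best known on eosinophils, was low but higher than in all other cells, at 12.8 and 6.83 CPM against 0.310 and 0.174 (5.45 ± 0.71, edgeR adjusted p = 0.0133), with the eosinophil gene Epx at 0 in the gated cells.

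Markers of B cells, stroma, cartilage and muscle were low in the gated cells. Of 8 B cell genes, 6 were lower than in all other cells, of 8 stromal genes 6, of 5 chondrocyte genes 5 and of 5 skeletal muscle genes 5, with medians of -5.35, -7.71, -8.35 and -6.74 (-5.02 for muscle with the gene at 0 UMIs in the gated cells set at its bound). The B cell list summed to 127 and 34.2 CPM in the gated cells and 2297 and 3451 CPM in all other cells, with Cd79b most abundant at 41.0 and 28.3 CPM and Cd79a and Pax5 among the genes at 0 in library 2. The stromal list summed to 54.2 and 298 CPM, and in library 2 Dcn (decorin) gave 142 CPM of it. The chondrocyte list summed to 13.2 and 13.7 CPM. Endothelial genes were not lower, with 0 of 2 tested called in either direction. Their list summed to 25.7 and 41.0 CPM in the gated cells and 39.1 and 40.2 CPM in all other cells. The 10 genes with the largest fall were Col9a1, Lum, Snorc, Hapln1, Dntt, Ibsp, Col9a3, Mia, Acan and Bglap, genes of cartilage, bone and fibrous matrix save for Dntt, the lymphoid terminal transferase.

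Erythroid genes stood out in library 1. They summed to 7630 CPM in the gated cells of library 1 and 264 CPM in those of library 2, against 15594 and 139 CPM in later neutrophils. Hbb-bs, a β-globin, was at 4136 and 45.9 CPM, 90.2 times higher in library 1 (95% counting interval 67.8 to 123). None of 10 erythroid genes passed against either class with edgeR, 0 had an unadjusted p under 0.05 and DESeq2 called 0, while the fit with the library as a block called 7 lower than in all other cells. Hbb-bs had a UMI in 99.3% and 72.0% of gated cells. In library 1, 10 of the 140 cells held 24104 of the 27226 Hbb-bs UMIs, and the median cell held 19.5 against 2 in library 2. The part of free globin RNA or of barcodes with more than 1 cell was not tested.

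Outside the globins, the gated cells of the 2 libraries differed in genes of later stages, of other lineages and of neither kind. The ratio of library 1 to library 2 was 0.873 for Ctsg (95% counting interval 0.849 to 0.898), 1.01 for Ms4a3 (0.948 to 1.07) and 1.05 for Nkg7 (0.970 to 1.14), while Prss57 stood at 1.56 (1.35 to 1.80) and Ctsc at 0.383 (0.324 to 0.455). It was 1.78 for Camp (1.72 to 1.84), 2.87 for S100a8 (2.79 to 2.94), 5.08 for S100a9 (4.92 to 5.25), 4.01 for Lcn2 (3.24 to 5.01), 4.08 for Fcnb (3.45 to 4.85) and 8.48 for Cd74 (2.29 to 70.9), and Cd79a was at 137 UMIs in library 1 and 0 in library 2. Mki67 stood at 3.19 (2.51 to 4.13), Top2a at 1.85 (1.58 to 2.19), Calr at 1.94 (1.80 to 2.09) and Cst7 at 1.66 (1.35 to 2.07), but Pcna at 1.03 (0.905 to 1.18). The library 2 levels of later-stage genes rested on few cells. Of its 3566 Camp UMIs, 2 of the 25 cells held 3553, and without the highest cell Camp was at 1373 CPM in place of 3480. Ngp had 778 of 817 UMIs in 1 cell and was at 39.2 CPM without it, and S100a9 was at 1187 CPM in place of 3564 without its highest cell. For Cd74 it was library 1 that rested on few cells. There 2 cells held 67 of 109 Cd74 UMIs, and without them Cd74 was at 6.45 CPM in place of 16.6. Genes of the Irf8 cells went both ways. The ratio was 0.433 for Ly86 (0.347 to 0.544), 0.557 for Ms4a6c (0.484 to 0.644) and 1.01 for F13a1 (0.836 to 1.22). In library 1, Klf4, Mpeg1, Ccr2 and Csf1r were higher in the Irf8 cells than in the Camp cells and the cells low in both. Of these, Klf4 stood at 1.93 (1.16 to 3.44), Ccr2 at 1.44 (0.896 to 2.45) and Csf1r at 0.633 (0.419 to 0.987). Mpeg1, with 5 UMIs in library 2, stood at 4.14 (1.73 to 12.96). A Camp UMI was found in 90.0% and 28.0% of gated cells. In the B cells of library 1, 36.4% had a Camp UMI, against 4.11% in library 2. With 1 condition and 2 libraries, the mice, the handling and the library cannot be told apart.

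**Figure D5:**
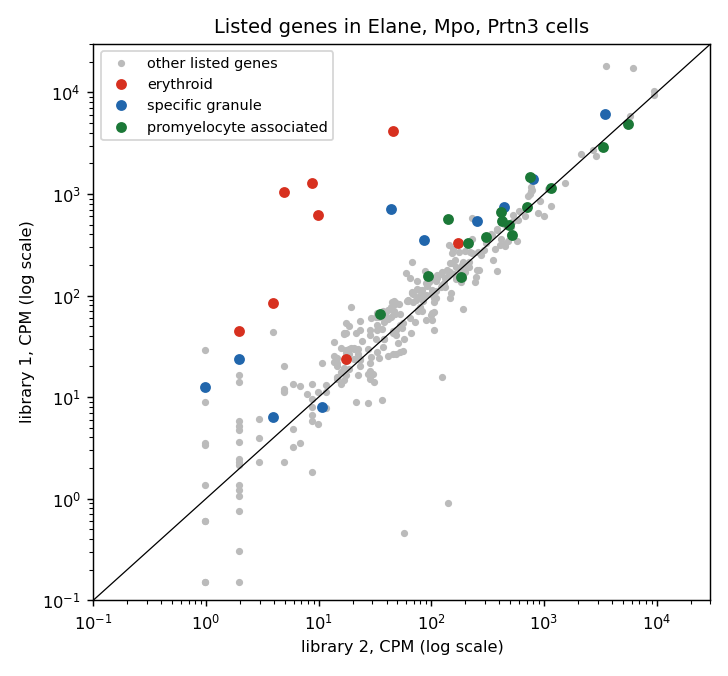
Summed CPM of the listed genes in the Elane, Mpo, Prtn3 cells of library 1 (vertical) against library 2 (horizontal), both on log scales, coloured by list. Ctsg lies near the diagonal at 4837 against 5539 CPM, and most of the specific granule genes drawn lie above it. S100a9, among the grey points, also lies above it, at 18108 against 3564 CPM.

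Ptprc encodes CD45, the antigen against which the cells were sorted. Its UMIs stood at 60.01 and 39.04 CPM in the gated cells, with a median of 2 and 1 UMIs per cell, and no class that lacks the gene was measured as a background. Later neutrophils held 348 and 202 CPM, so that the gated cells were lower (log2 fold change -3.11 ± 0.45, edgeR adjusted p = 0.0111), and all other cells held 79.7 and 44.8 CPM (edgeR adjusted p = 0.860). Pecam1 (CD31) was at 11.1 and 9.76 CPM, against 2.46 and 1.06 in later neutrophils (edgeR adjusted p = 0.0862; 0.0458 with the block). Surface protein was not measured in these files.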

How the data were processed

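The authors deposited, for each of 2 libraries (Chromium Single Cell 3′ v3.1), a filtered 10x matrix of raw UMI counts over 32288 features, of which 32285 are mouse genes and 3 reporter or sequence features. The submitters' processing notes name Cell Ranger 6.1.2 and mm10, and the gene annotation is not given in the sources used here. Cells with at least 500 genes, at least 500 UMIs and at most 10% mitochondrial UMIs were kept, which left 6276 of 9932 and 2893 of 3659 barcodes. The classes were set per cell by UMIs of Elane, Mpo, Prtn3 and Ltf with a threshold of 5 UMIs, and doublets were treated only by an alternative without cells with 5 or more UMIs of a gene of another lineage.

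Counts were summed per library and class, filtered with filterByExpr, scaled by TMM and tested with edgeR 4.0.16 (R 4.3.3; glmQLFit, glmQLFTest, no block); p-values were adjusted by the method of Benjamini and Hochberg, and genes under 0.05 were called. The replicate numbers pair the sums, because sums of 1 number come from the same cell suspension, and deviations from the class means correlated with r = 0.179 for gated cells and later neutrophils, 0.283 for gated cells and all other cells and 0.03 for the last pair. Ratios within a library have exact conditional binomial 95% intervals, and shares of cells have exact binomial ones (scipy 1.17.1). Intervals and floors (3 counts) cover counting error only. Shares at 1000 UMIs per cell are hypergeometric expectations.

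On simulated counts with 12167 genes, the test against later neutrophils recovered 0.588% of genes changed 2-fold, 16.4% of those changed 4-fold and 77.3% of those changed 16-fold, with 3.42% of calls false. The test against all other cells recovered 0.882%, 22.1% and 82.1% with 6.97% false. Far fewer genes differed in the simulated counts than were called in the data, and the classes otherwise shared the same profile. These shares may thus not hold for the data. The genes named were those of fixed lists and, for each comparison and direction, the 10 with the largest fold change among those past the threshold with the same direction in both libraries and at least 50 CPM in the class where they are higher. The members and lists were chosen with earlier results of these data known. The cells with 5 or more UMIs of Irf8 or of Camp, and ribosomal protein genes, were singled out after their values were seen. Promoter sequences are from RefSeq. DESeq2 1.42.0, other scalings, filters and gates were alternatives.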

Additional observations from a re-analysis of the deposited data

Results flagged for a closer look

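Reporter transcripts, which the comparisons do not use, were found although the labels give the mice as WT. The Elane, Mpo, Prtn3 cells held 66 tdTomato UMIs in library 1 and 17 in library 2, and 0 EGFP UMIs in either. All other cells of library 2 held 6836 EGFP UMIs, where those of library 1 held 0. These values were picked out because a count of 0 would allow at most 3.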

How the results depend on the processing

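With 2 libraries per class, a count without 1 library could not be made, since it leaves no residual degrees of freedom. Against later neutrophils, where 761 genes were higher and 1064 lower, the replicate block gave 1332 and 1719, library size alone 1929 and 574, no filter on low counts 455 and 607, and leaving out cells with other-lineage UMIs 1489 and 1829 (with 117 gated cells in place of 140 in library 1). Leaving out cells with other-lineage UMIs also left 1362 of 5516 and 401 of 2799 other cells in libraries 1 and 2. Of later neutrophils it left 562 of 620 in library 1. DESeq2 gave 1249 higher and 1408 lower. Against all other cells, with 345 higher and 796 lower, the block gave 567 and 1287, DESeq2 539 and 892 and no filter 207 and 263. The cause of these shifts was not tested beyond the fewer or more genes and cells that each setting holds. The block lost the call and turned the direction of none of the 120 and 89 named or listed genes that passed against later neutrophils and all other cells. It also added calls, given in the report beside each p printed there that it moved under the threshold.

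Of those 120 genes all kept their direction under the alternatives that gave them a value, save Irf8 without the cells that define it (-0.84, adjusted p 0.51; against all other cells -3.32, adjusted p 0.0471). Of the 89, Ckm turned from -4.92 to 0.66 (adjusted p 0.56) without cells with other-lineage UMIs. With 1 library left there was no test. Without replicate 1, 63 of 118 genes against later neutrophils and 32 of 88 against all other cells moved by more than 1 SE, and without replicate 2, 30 of 120 and 37 of 89 did, none with a change of direction. With no filter on low counts 23 and 24 genes lost their call, with library size alone 11 and 8, with a gate of 3 UMIs 10 and 9, without the Irf8 cells 10 and 10, and without cells with other-lineage UMIs 0 and 25 (of 81 with a value). Library 2 limits the precision, with 1024710 UMIs in its gated cells and 942228 in its later neutrophils.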

Other observations

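Ribosomal protein genes, a list of 96 symbols drawn after values had been seen, took 28.1% and 31.7% of the UMIs of the Elane, Mpo, Prtn3 cells in libraries 1 and 2. The same genes took 6.90% and 4.87% in later neutrophils and 25.02% and 22.5% in all other cells, so the gated cells stood above later neutrophils in both libraries. The tdTomato UMIs of later neutrophils numbered 119 and 41, and those of all other cells 1297 and 4569.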
